A study of Mus musculus with 12 samples.

Results

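The genes described here code for histones and for the proteins that modify, read or move them, in the small intestine of mice that were fed or had been fasted. Their members were all probes whose gene name began with the symbols of histones (Hist, H1f, H2af, H3f), high mobility group proteins (Hmga, Hmgb, Hmgn), histone deacetylases (Hdac, Sirt), histone and arginine methyltransferases (Ezh, Suv, Prmt and its older name Hrmt), acetyltransferases (Myst), chromodomain proteins (Cbx, Chd), bromodomain proteins (Brd, Baz), SWI/SNF subunits and related proteins (Smarc) or the DNA methylation machinery (Dnmt, Mbd). The rule used names and no measured values. It took 97 of the 20281 probes tested, which stand for 71 of 18117 gene names, and 21 of these genes had more than 1 probe. A rule on names also takes in Dnmt2, now called Trdmt1, which methylates transfer RNA, and Hmgb2l1, now called Hmgxb4. By name it counts Chd1l, a remodeller with a macrodomain and no chromodomain, among the chromodomain proteins. The current annotation gives the Hdac1 probe as a pseudogene, Hdac1-ps.

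Each of the 12 arrays carried Cy3-labelled cDNA of full-thickness small intestine pooled from 2 male FVB mice, and 3 pools each came from mice killed fed (0 h) or after 12, 24 or 72 h without chow. The mice were 6 weeks old when chow was removed, water stayed available, they were kept in metabolic cages, and an infrared lamp warmed them from 24 h on. The Cy5 channel held a common reference of RNA from 6 fed mice, although the source given for fed replicate 3 names the pair of fed mice of its own Cy3 pool. A value is log2(Cy3/Cy5), so that 0 is the level of the reference and a change is the mean of the fasted pools minus the mean of the fed pools. At 12 members an outlier spot left a time with 2 pools. A probe was called when its limma p, adjusted over all probes, was under 0.05. The tissue was whole gut wall, and fewer cells of a type and less RNA per cell cannot be told apart in it.

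The median Cy5 intensity was 124 to 142 on the fed and 72 h arrays and 393 to 627 on the 12 h and 24 h arrays, whose files share another format. Thus the comparison of 72 h with fed lies within a format, whereas fasting for 12 or 24 h and the format cannot be told apart. Fed replicate 3 lay farthest from the other fed pools at 66 of the 97 probes. The median difference between fed replicates 1 and 2 was 0.12 on the log2 scale, against 0.30 between replicates 1 and 3 and 0.28 between replicates 2 and 3. Each of the 97 probes had a Cy3 signal well above background in all pools of 1 or more times, 61 of them on the full set of arrays, and none was saturated. The arrays' number and their signal over background limit the precision.

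DNA in the nucleus is wound around octamers of the core histones H2A, H2B, H3 and H4, and linker histones of the H1 family bind where it enters and leaves. Most core histone genes are transcribed during DNA replication, whereas replacement histones such as H3.3 and H1.0 are made throughout the cell cycle. Enzymes add or remove acetyl and methyl groups on histone tails, bromodomains bind acetylated lysines, chromodomains bind methylated ones, and SWI/SNF complexes use ATP to slide or evict nucleosomes. The epithelium of the small intestine renews itself within days from dividing crypt cells, which need new histones for every round of replication.

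Of the 97 probes, 24 probes of 24 genes were called at 1 or more fasting times, and 73 probes were not called at any. At 12 h 11 probes were called, which is 11.3% of the members beside 10.9% of all probes. At 24 h the 12 called probes were 12.4% of the members, beside 10.0% of all probes. At 72 h the 17 called probes were 17.5%, beside 10.6% of all probes. At 12 h 4 members rose and 7 fell, or 4.12% and 7.22% of the members, beside 4.87% and 6.02% of all probes. At 24 h 8 rose and 4 fell, or 8.25% and 4.12%, beside 3.76% and 6.26% of all probes. At 72 h 11 rose and 6 fell, or 11.3% and 6.19%, beside 4.81% and 5.79% of all probes. The shares called at 12 and 24 h were near those of all probes. The split depended on the scaling: with each array centred on its median in place of quantile normalization, 2 members rose and 11 fell at 12 h, 5 rose and 9 fell at 24 h and 5 rose and 12 fell at 72 h. Of all probes, 1185 rose and 1844 fell at 12 h under this scaling, 1870 and 2027 at 24 h, and 912 and 1921 at 72 h. With the scanner software's own log ratios 1 rose and 4 fell at 12 h, 7 rose and 7 fell at 24 h and 10 rose and 13 fell at 72 h. Of all probes, 587 rose and 1007 fell at 12 h with these ratios, 1170 and 2104 at 24 h, and 1305 and 1904 at 72 h. The median change of the members was 0.03, 0.05 and -0.03 on the log2 scale at 12, 24 and 72 h, beside -0.02, 0.02 and 0.01 for all probes. The 3 comparisons share the fed pools. Without fed replicate 3 the counts of called members were 3, 2 and 7, beside 640, 972 and 1115 of all probes. Without fed replicate 1 they were 5, 1 and 9, beside 817, 584 and 1249 of all probes. Of the 40 calls, 6 held without each of the 12 arrays in turn: Hmga1 and H3f3a at 12 h, and Smarcb1, Cbx2, Hist1h2bc and H3f3a at 72 h. Each of the other 34 was lost without 1 to 10 of the arrays.

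**Figure D1:**
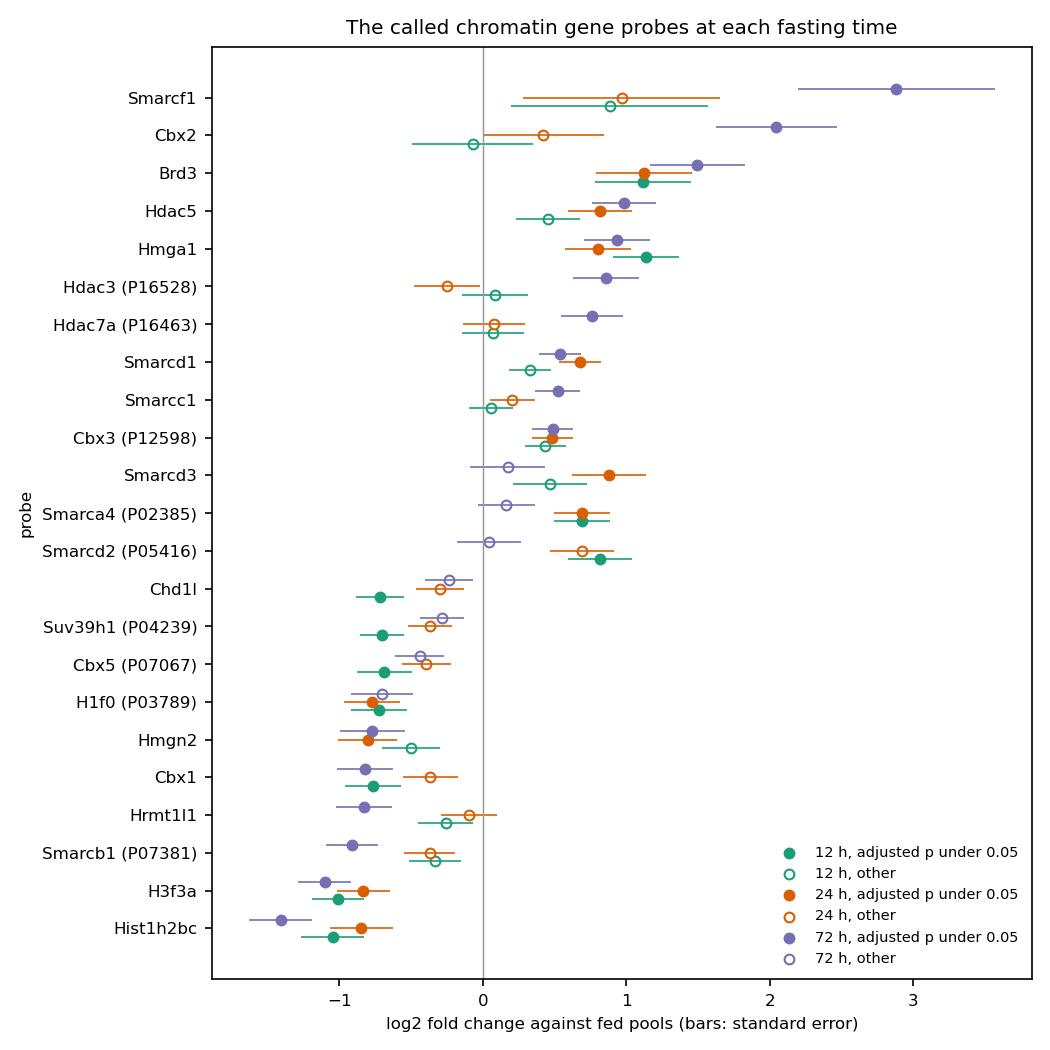
Log2 fold change against the fed pools, with its standard error, of 23 of the 24 probes called at 1 or more times (rows) at 12 h (green), 24 h (orange) and 72 h (violet), 3 pools per time. Filled points passed an adjusted p under 0.05 and open points did not; Smarcf1 and Cbx2 rose furthest at 72 h and Hist1h2bc and H3f3a fell at every time.

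4 genes were called at all 3 times, always in the same direction of log2(Cy3/Cy5), though at 12 h Brd3 changed by -0.27 in Cy3 alone. Hist1h2bc, a core histone H2B gene, and H3f3a, a gene of the replacement histone H3.3, fell. Hmga1, a high mobility group protein that bends AT-rich DNA, and Brd3, a bromodomain protein that binds acetylated histones, rose. For those with an entry among the RefSeq promoters of GRCm38.p6, the 250 bases before the start site are shown, with H3f3b beside H3f3a because both genes encode the same H3.3 protein. Hist1h2bc, now H2bc4, is named only. Capitals mark matches on either strand of the CCAAT box (letters CCAAT), of the TATA box (letters TATAAA), of the GC box (letters GGGCGG), of the octamer (letters ATTTGCAT), of a forkhead motif (letters GTAAACA) and of the E-box (letters CACGTG), where overlapping matches are run together. H3f3a lies at chr1:180813606-180813855 (minus strand), H3f3b at chr11:116024505-116024754 (minus strand), Hmga1 at chr17:27556324-27556573 (plus strand, 1 of 2 start sites) and Brd3 at chr2:27475399-27475648 (minus strand).
H3f3a: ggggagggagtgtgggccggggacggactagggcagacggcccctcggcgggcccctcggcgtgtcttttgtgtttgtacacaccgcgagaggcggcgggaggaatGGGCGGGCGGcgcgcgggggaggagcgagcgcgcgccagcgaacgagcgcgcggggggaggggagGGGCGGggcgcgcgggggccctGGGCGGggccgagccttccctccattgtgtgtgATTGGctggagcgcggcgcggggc
H3f3b: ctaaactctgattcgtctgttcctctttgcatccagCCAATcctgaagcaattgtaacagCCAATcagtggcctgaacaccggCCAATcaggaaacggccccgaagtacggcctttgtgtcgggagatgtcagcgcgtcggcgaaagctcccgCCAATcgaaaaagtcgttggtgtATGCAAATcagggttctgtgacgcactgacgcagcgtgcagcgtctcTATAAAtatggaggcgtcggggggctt
Hmga1: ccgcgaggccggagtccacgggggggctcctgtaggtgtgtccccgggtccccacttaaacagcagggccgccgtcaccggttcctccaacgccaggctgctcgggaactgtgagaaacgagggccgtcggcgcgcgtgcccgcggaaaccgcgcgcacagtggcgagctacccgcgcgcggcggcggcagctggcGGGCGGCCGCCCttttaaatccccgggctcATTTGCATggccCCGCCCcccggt
Brd3: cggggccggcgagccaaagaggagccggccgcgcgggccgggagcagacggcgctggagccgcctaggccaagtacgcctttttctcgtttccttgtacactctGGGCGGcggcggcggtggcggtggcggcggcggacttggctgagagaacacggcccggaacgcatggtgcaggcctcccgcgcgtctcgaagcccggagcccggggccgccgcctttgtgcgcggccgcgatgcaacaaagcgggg

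The H3f3a stretch was 77.2% G and C and held 4 GC boxes and 1 CCAAT box. The H3f3b stretch was 54% G and C and held 4 CCAAT boxes, 1 TATA box and 1 octamer, with no GC box. Hmga1 held 3 GC boxes and an octamer, and Brd3 held 1 GC box. The GC box was found in 32.7% of all 32851 promoter stretches of this length, the CCAAT box in 33.8%, the TATA box in 12.4%, the E-box in 6.02%, the forkhead motif in 3.17% and the octamer in 1.6%. Of the 76 stretches that matched a member by symbol, which belong to 55 genes, 72.4% held the GC box, 35.5% the CCAAT box, 10.5% the E-box, 5.26% the TATA box, 3.95% the octamer and 2.63% the forkhead motif. The median content of G and C was 63% for these and 52.4% for all. These are matches of letters, and the arrays did not measure what binds there.

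Among the core and linker histones, Hist1h2bc read -0.13, -0.44 and 0.33 in the fed pools, -0.87, -0.95 and -1.56 at 12 h, -1.10, -0.81 and -0.87 at 24 h, with -1.57, -1.31 and -1.59 at 72 h. Every fasted pool was below every fed pool. It fell 2.06-fold at 12 h (log2 change -1.04 ± 0.22, SE, adjusted p = 0.0120), 1.80-fold at 24 h (adjusted p = 0.0278) and 2.65-fold at 72 h (-1.41 ± 0.22, adjusted p = 0.00143). The change was -0.10 in Cy3 and 0.95 in Cy5 at 12 h, and -1.16 and 0.25 at 72 h. The fall at 72 h kept its call without each of the 12 arrays in turn. At 12 h the call was lost without fed replicate 3 (adjusted p = 0.0548), and at 24 h it was lost without each of 5 arrays, with the highest adjusted p, 0.107, without fed replicate 3. The primer of the reverse transcription is not given in the sources used here. Copies of H2B genes are nearly identical, so that the probe may also read other copies.

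H1f0, the gene of the replacement linker histone H1.0, had a pair of probes. Probe A_65_P03789 read 0.37, 0.31 and 0.37 in the fed pools and between -0.72 and -0.03 at 12 h and -0.66 and -0.14 at 24 h. Its ratio fell 1.65-fold at 12 h (-0.72 ± 0.20, adjusted p = 0.0343) and 1.70-fold at 24 h (-0.77 ± 0.20, adjusted p = 0.0273), and each call was lost without 5 of the 12 arrays. At 12 h it changed by 0.38 in Cy3 and by 1.10 in Cy5, so that the ratio fell though Cy3 rose. The source of the Cy5 change was not tested. At 72 h, where replicate 1 was left out as an outlier spot, the change was -0.70 ± 0.22 and was not called (adjusted p = 0.0572). The other probe, A_65_P20272, was called at no time and its changes were 0.39, -0.13 and -0.10. The probes for Hist2 and Hist2h2aa1, which now share the name H2ac18, and for H1fo-pending, the oocyte linker histone now called H1f8, were not called. In Hist2h2aa1 the fed pools alone spanned -0.86 to 1.41.

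Of the replacement histones, H3f3a fell at every time and H3f3b was called at none against the fed pools, and the difference between these probes was not tested. H3f3a read -0.05, -0.22 and 0.02 in the fed pools, -0.67, -1.31 and -1.30 at 12 h, -1.13, -0.77 and -0.84 at 24 h, with -1.15, -1.16 and -1.24 at 72 h. No fasted pool overlapped the fed ones, and the 72 h pools were close together. H3f3a fell 2.01-fold at 12 h (-1.01 ± 0.18, adjusted p = 0.00666), 1.78-fold at 24 h (adjusted p = 0.0154) and 2.14-fold at 72 h (-1.10 ± 0.18, adjusted p = 0.00199). At 12 h it changed by -0.45 in Cy3 and by 0.56 in Cy5. The calls at 12 and 72 h held without each array in turn, whereas that at 24 h was lost without fed replicate 1 (adjusted p = 0.0594), fed replicate 3 (0.0501) or 24 h replicate 1 (0.0650).

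H3f3b read 0.01, 0.00 and 0.55 in the fed pools, -0.41, -0.38 and -0.33 at 12 h, -0.60, -0.12 and -0.28 at 24 h, with 0.44, 0.93 and 0.41 at 72 h. The pools at 12 and 24 h were all below the fed pools and those at 72 h overlapped them, and none of its changes was called (adjusted p = 0.0821, 0.111 and 0.220). Between 72 h and the earlier times, H3f3b was 1.95-fold higher than at 12 h (0.96 ± 0.20, adjusted p = 0.00849) and 0.92 ± 0.20 higher on the log2 scale than at 24 h (adjusted p = 0.0107). The difference from 12 h was 0.35 in Cy3 and -0.61 in Cy5, and that from 24 h 1.08 in Cy3 and 0.16 in Cy5. H2afx, the H2A.X histone that is phosphorylated at DNA breaks, changed by -0.27 ± 0.22 at 72 h (adjusted p = 0.483). H2afy, the macroH2A gene, changed by 0.68 ± 0.28 at 12 h (adjusted p = 0.129) and by -0.34 at 72 h (adjusted p = 0.501).

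**Figure D2:**
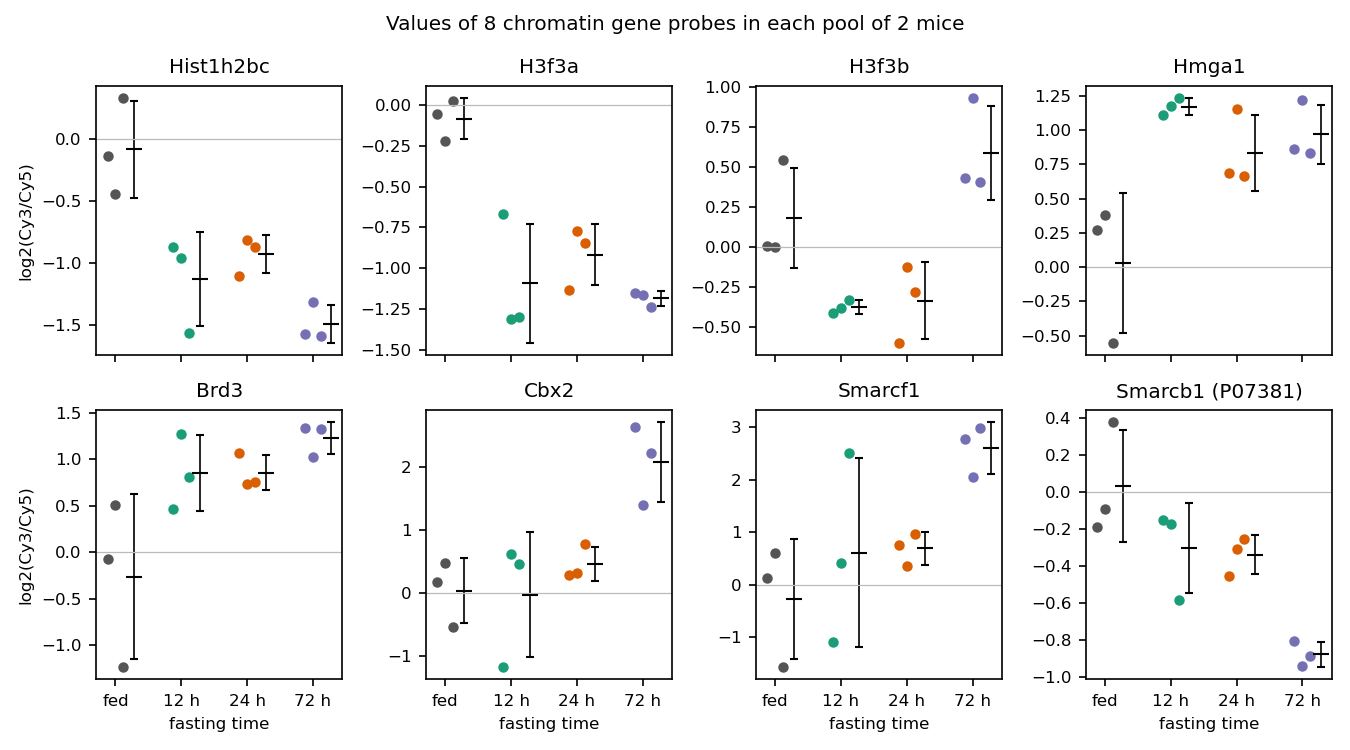
log2(Cy3/Cy5) of 8 probes in each pool of 2 mice, fed and at 12, 24 and 72 h; each point is a pool and the black mark and bar are the mean and SD of 3 pools. Hist1h2bc and H3f3a were lower in every fasted pool, H3f3b was below the fed pools at 12 and 24 h, and Cbx2 and Smarcf1 were higher in every 72 h pool.

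Of 8 probes for high mobility group proteins, Hmga1 rose at every time and Hmgn2, which binds nucleosomes, fell at 24 and 72 h. Hmga1 read 0.27, 0.38 and -0.55 in the fed pools, 1.11, 1.17 and 1.23 at 12 h, 0.69, 1.15 and 0.66 at 24 h, with 0.86, 1.22 and 0.83 at 72 h. All fasted pools were above all fed pools. The rise was 2.20-fold at 12 h (1.14 ± 0.23, adjusted p = 0.01004), 1.74-fold at 24 h (adjusted p = 0.0404) and 1.91-fold at 72 h (0.94 ± 0.23, adjusted p = 0.0175). The rise at 12 h was 0.34 in Cy3, with a Cy5 change of -0.80. It kept its call at 12 h without each array in turn and lost that at 24 h without 9 of 12. Without fed replicate 3 it was 0.51 at 24 h (adjusted p = 0.135) and 0.64 at 72 h (adjusted p = 0.0712). The call at 72 h was also lost without 72 h replicate 1 or 72 h replicate 2 (0.0808). Hmgn2 read -0.12, -0.33 and 0.49 in the fed pools and -0.96, -0.68 and -0.74 at 24 h, and fell 1.74-fold (-0.80 ± 0.20, adjusted p = 0.0273). At 72 h it read -0.68 and -0.83 in 2 pools, since replicate 1 had an outlier spot, and fell 1.70-fold (adjusted p = 0.0469). The calls of Hmgn2 were lost without 5 arrays at 24 h and without 9 at 72 h. Hmgb1, Hmgb3 and Hmgn1 were not called, with changes at 12 h of 0.48, 0.55 and -0.11.

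The methyltransferases that were called fell, Hrmt1l1 at 72 h and Suv39h1 at 12 h. Hrmt1l1, now Prmt2, an arginine methyltransferase, read 0.14, -0.30 and 0.44 in the fed pools and -0.77, -0.65 and -0.78 at 72 h. It fell 1.77-fold (-0.83 ± 0.19, adjusted p = 0.0140), and without fed replicate 3 the change was -0.65 (adjusted p = 0.0700). The call was also lost without fed replicate 1 (adjusted p = 0.0549) and without 72 h replicate 1. Suv39h1, which methylates lysine 9 of H3 in heterochromatin, fell 1.63-fold at 12 h by probe A_65_P04239 (-0.70 ± 0.15, adjusted p = 0.0142), and the call was lost without fed replicate 2 (adjusted p = 0.0505). Its brighter probe A_65_P02024 changed by 0.14 (adjusted p = 0.637). Ezh2 and Ezh1, the catalytic subunits of Polycomb repressive complex 2, were not called: at 72 h Ezh2 changed by -0.48 ± 0.17 (adjusted p = 0.0899) and Ezh1 by 0.65 ± 0.21 (adjusted p = 0.0664). Hrmt1l2, now Prmt1, changed by -0.52 ± 0.17 (adjusted p = 0.0670).

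Among the chromodomain proteins, Cbx2 rose and Cbx1 fell at 72 h. Cbx2, a subunit of Polycomb repressive complex 1, read 0.17, 0.47 and -0.54 in the fed pools, -1.18, 0.62 and 0.45 at 12 h, 0.28, 0.31 and 0.77 at 24 h, with 2.64, 1.39 and 2.21 at 72 h. All 72 h pools were above every other pool. It rose 4.13-fold at 72 h (2.05 ± 0.42, adjusted p = 0.00660) and kept the call without each array in turn (log2 change 1.76 to 2.39). Its changes at 12 and 24 h were -0.07 and 0.42 and were not called.

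Of the heterochromatin proteins HP1, the ratio of Cbx1 (HP1 beta) fell 1.70-fold at 12 h (-0.77 ± 0.19, adjusted p = 0.0249) and 1.76-fold at 72 h (-0.82 ± 0.19, adjusted p = 0.0147). At 12 h Cbx1 changed by -0.03 in Cy3 and by 0.73 in Cy5, so that Cy5 made up nearly all of the change in the ratio. The source of the Cy5 change was not tested. At 72 h Cbx1 changed by -0.54 in Cy3 and by 0.28 in Cy5. It read -0.07, -0.03 and 0.46 in the fed pools, -0.38, -0.65 and -0.91 at 12 h and -0.89, -0.54 and -0.67 at 72 h. Without fed replicate 3 its changes were -0.60 at 12 h (adjusted p = 0.0989, a call lost without 3 of 12 arrays) and -0.65 at 72 h (adjusted p = 0.0741), where the call was also lost without 72 h replicate 1 (adjusted p = 0.0897). Cbx3 (HP1 gamma) rose by probe A_65_P12598, which was well above background in 1 of 3 fed pools, 1.399-fold at 24 h (0.48 ± 0.14, adjusted p = 0.0471) and 1.401-fold at 72 h (0.49 ± 0.14, adjusted p = 0.0440). At 24 h that probe changed by -0.11 in Cy3 and by -0.59 in Cy5. Each of these calls was lost without 9 of the 12 arrays. Its brighter probe A_65_P20802 changed by -0.21 and -0.07. Of 4 probes for Cbx5 (HP1 alpha), A_65_P07067 fell at 12 h over 2 pools (-0.69 ± 0.19, adjusted p = 0.0381), a call lost without 8 of 12 arrays, where the other probes changed by 0.20 to 0.27. For A_65_P07067 the 12 h change was -0.28 in Cy3 and 0.41 in Cy5. At 72 h the changes of the 4 Cbx5 probes ran from -0.53 to -0.06 and none was called. Chd1l, a remodeller with a macrodomain, fell 1.64-fold at 12 h (-0.71 ± 0.17, adjusted p = 0.0184), a call lost without fed replicate 1 (0.0554) or fed replicate 3 (0.0714). Chd1 and Chd4 were not called.

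The 13 probes for DNA methyltransferases and methyl-CpG binding proteins were called at no time. Dnmt1, which copies methylation at replication, changed by -0.51 ± 0.17 at 12 h by its brighter probe (adjusted p = 0.0726) and by 0.32 by the other. The brighter probes of Dnmt3a and Dnmt3b, which methylate new sites, changed by -0.05 and 0.32 at 72 h. Mbd1, by its brighter probe, changed by 0.56 ± 0.17 at 12 h over 2 pools (adjusted p = 0.0536), whereas Mbd2, Mbd3 and Mbd4 had changes between -0.18 and 0.37 at that time.

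Deacetylases remove acetyl groups from histones and from other molecules. Of their 15 probes, none was called at 12 h, 1 at 24 h and 3 at 72 h, and those called rose. Hdac5, a class II enzyme that shuttles between nucleus and cytoplasm, read 0.12, -0.02 and -0.80 in the fed pools, 0.63, 0.54 and 0.58 at 24 h, with 0.86, 0.83 and 0.56 at 72 h, and was well above background in 2 of 3 fed pools. It rose 1.76-fold at 24 h (0.82 ± 0.23, adjusted p = 0.0357) and 1.98-fold at 72 h (0.98 ± 0.23, adjusted p = 0.0124). Without fed replicate 3 the rise was 0.53 at 24 h (adjusted p = 0.119, a call lost without 7 of 12 arrays) and 0.70 at 72 h (adjusted p = 0.0508), where the call was also lost without 72 h replicate 1 (adjusted p = 0.0681). Hdac7a, now Hdac7, of the same class, rose 1.70-fold at 72 h by probe A_65_P16463 (0.76 ± 0.22, adjusted p = 0.0378), and its other probe changed by 0.49 ± 0.15 (adjusted p = 0.0571).

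Hdac3, the enzyme of the NCoR corepressor complexes, rose 1.81-fold at 72 h by its brightest probe A_65_P16528 (0.86 ± 0.23, adjusted p = 0.0284), which read -0.29, -0.13 and -0.35 in the fed pools and 0.91, 0.31 and 0.61 at 72 h. The other Hdac3 probes changed by -0.11 and 0.11. The call of Hdac3 was lost without 4 of the 12 arrays and that of Hdac7a without 8, with the highest adjusted p, 0.152 and 0.196, without 72 h replicate 1. Hdac2, Hdac6 and the probe named Hdac1, which matches the pseudogene Hdac1-ps, were not called, with changes of 0.09, -0.05 and 0.11 at 72 h. The sirtuins, deacetylases that use NAD, were not called either: Sirt1 changed by 0.21 and 0.34 at 72 h by its probes, Sirt3 by -0.65 ± 0.24 (adjusted p = 0.107) and Sirt7 by 0.11. Sirt7 and Sirt3 were closest to a call at 12 h, with changes of -0.63 ± 0.19 (adjusted p = 0.0538) and -0.78 ± 0.24 (adjusted p = 0.0549). The only acetyltransferase probe, Myst1, changed by -0.15, 0.44 and 0.04.

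Of the bromodomain proteins, Brd3 rose at every time in log2(Cy3/Cy5), but not in Cy3 at 12 h. At 12, 24 and 72 h it changed by -0.27, 0.56 and 1.47 in Cy3 and by -1.39, -0.56 and -0.02 in Cy5. Brd3 read -0.08, 0.51 and -1.23 in the fed pools, 0.46, 1.28 and 0.82 at 12 h, 1.07, 0.74 and 0.76 at 24 h, with 1.34, 1.03 and 1.32 at 72 h. The 12 h pools overlapped the fed pools and the later ones did not. Brd3 rose 2.17-fold at 12 h (1.12 ± 0.33, adjusted p = 0.0458), 2.18-fold at 24 h (adjusted p = 0.0467) and 2.82-fold at 72 h (1.495 ± 0.33, adjusted p = 0.0104). Without fed replicate 3 the rises were 0.63 (adjusted p = 0.154), 0.64 (0.148) and 1.01 (0.0341), and without 72 h replicate 1 the last was 1.44 (0.0558). The calls at 12 and 24 h were lost without 10 and 8 of the 12 arrays. Brd2 changed by 0.42 ± 0.17 at 72 h (adjusted p = 0.142), and Baz1a and Baz1b, subunits of ISWI remodellers, were not called.

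The Smarc names gave 17 probes for 11 genes, of which 2 rose at 12 h, 3 rose at 24 h, and 3 rose and 1 fell at 72 h. Of these, 6 probes belong to Smarca1 and Smarca5, ATPases of ISWI remodellers, and Smarcal1, an annealing helicase, and none of the 6 was called. The 11 probes for SWI/SNF subunits had median changes of 0.33, 0.38 and 0.15. The change furthest from 0 among all members was that of Smarcf1, now Arid1a, a DNA-binding subunit of BAF complexes, at 72 h. Smarcf1 read 0.14, 0.61 and -1.56 in the fed pools, -1.09, 0.42 and 2.51 at 12 h, 0.77, 0.36 and 0.97 at 24 h, with 2.79, 2.05 and 2.99 at 72 h. The 72 h pools were above the fed and 24 h pools, and 1 of the 12 h pools lay among them. Of the fed pools, 2 were well above background. The rise at 72 h was 7.37-fold (2.88 ± 0.69, adjusted p = 0.0151), and without fed replicate 3 it was 2.24 on the log2 scale (adjusted p = 0.0926). The call was also lost without 72 h replicate 1 or 72 h replicate 3.

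Smarcb1, the core subunit also known as Snf5, fell 1.88-fold at 72 h by its brighter probe A_65_P07381 (-0.91 ± 0.18, adjusted p = 0.00521). That probe read -0.19, -0.09 and 0.38 in the fed pools and -0.81, -0.94 and -0.89 at 72 h, and kept the call without each array in turn. The other Smarcb1 probe changed by 0.06 (adjusted p = 0.837). Smarca4, the ATPase Brg1, rose 1.62-fold at 12 h (0.69 ± 0.20, adjusted p = 0.0382) and 1.61-fold at 24 h (adjusted p = 0.0393) by probe A_65_P02385. At 24 h that probe changed by 0.23 in Cy3 and by -0.46 in Cy5. These calls were lost without 9 and 7 of the 12 arrays. Its brighter probe changed by 0.68 ± 0.39 and 0.32 without a call. The Smarcd genes code for accessory subunits of the same complexes. Smarcd1 rose 1.60-fold at 24 h (0.68 ± 0.15, adjusted p = 0.0135) and 1.45-fold at 72 h (adjusted p = 0.0303), and Smarcd2 rose 1.76-fold at 12 h (adjusted p = 0.0340) by a probe whose brighter partner changed by 0.10. Smarcd3 was not well above background in any fed pool and rose at least 1.38-fold at 24 h (0.88 ± 0.26, adjusted p = 0.0460). Smarcc1, likewise dim when fed, rose at least 1.02-fold at 72 h (0.52 ± 0.16, adjusted p = 0.0442). These bounds were computed in Cy3. The calls of Smarcd3 and Smarcc1 were each lost without 9 of the 12 arrays, that of Smarcd2 without 5, and those of Smarcd1 without 2 at 24 h and 6 at 72 h.

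**Figure D3:**
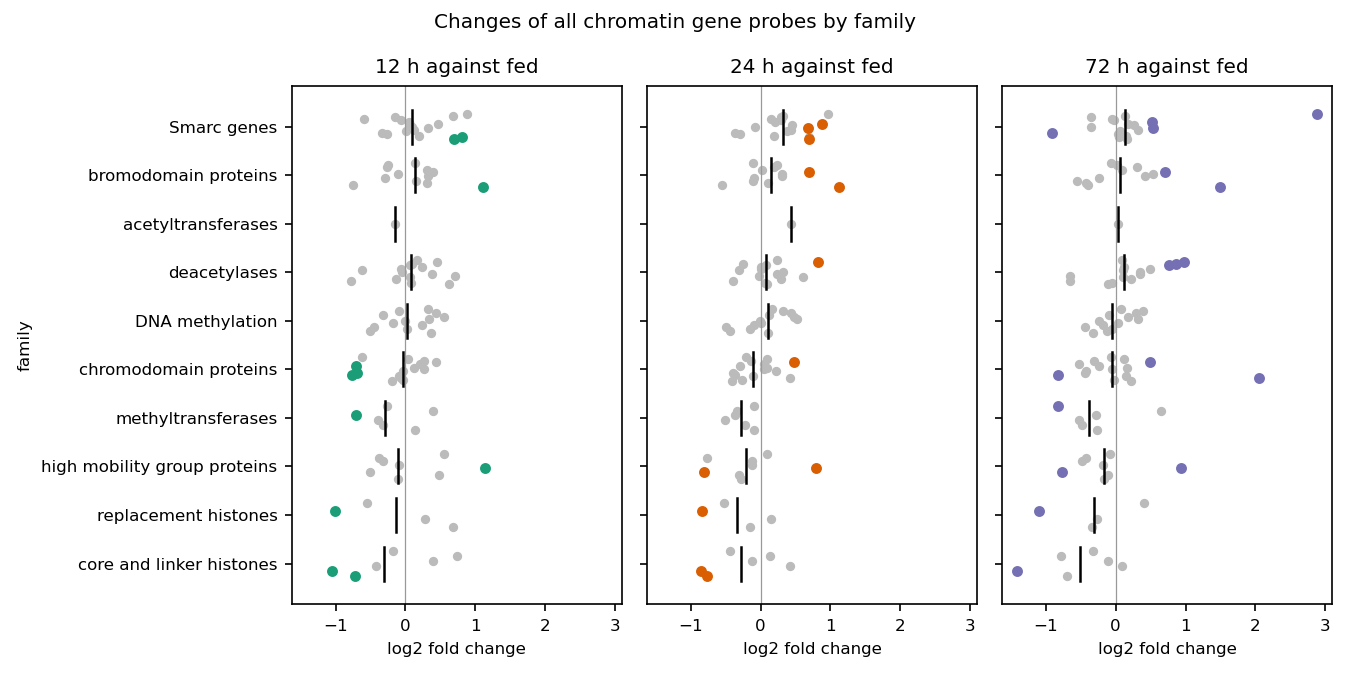
Log2 fold change of all 97 probes against the fed pools at 12, 24 and 72 h, by family; coloured points passed an adjusted p under 0.05, grey points did not, and black bars are family medians. The medians of the Smarc genes were 0.10, 0.32 and 0.14 and those of the core and linker histones -0.30, -0.28 and -0.51.

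By family the median changes at 72 h ran from -0.51 for the 6 core and linker histone probes to 0.14 for the 17 Smarc probes. The replacement histones, methyltransferases and high mobility group proteins had medians of -0.31, -0.38 and -0.17, and the deacetylases, bromodomain and chromodomain proteins of 0.11, 0.06 and -0.06. These medians are a description over few probes. Under loess, median centring, the software's own ratios and Cy3 alone, the medians of the core and linker histones lay between -0.66 and -0.10 at the 3 times and those of the Smarc probes between 0.03 and 0.56, and the replacement histones stayed below 0. The medians of all other families changed sign with the scaling at 1 or more times. Those of the high mobility group proteins and methyltransferases did so only at 12 h, where they were 0.20 and 0.01 in Cy3 alone.

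Probes of the same gene often differed. Of the 21 genes with more than 1 probe, all probes had the same sign in 8 genes at 12 h, in 12 at 24 h and in 10 at 72 h. The plot of these genes shows the split values of Smarcb1, Hdac3 and Cbx3. Which transcript each probe reads was not tested.

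**Figure D4:**
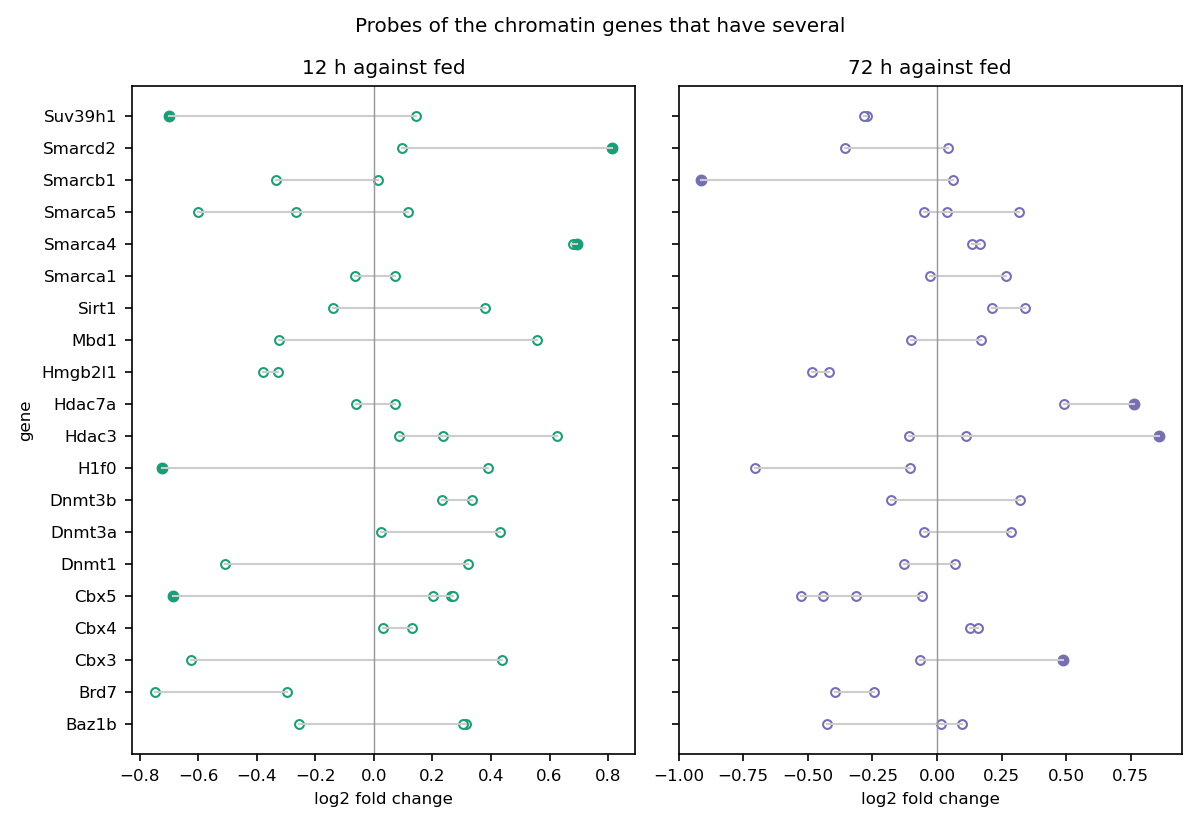
Log2 fold change at 12 h (left) and 72 h (right) against the fed pools for each probe of 20 of the 21 genes with more than 1; lines join the probes of a gene and filled points passed an adjusted p under 0.05. At 72 h the Smarcb1 probes were at -0.91 and 0.06 and the Hdac3 probes between -0.11 and 0.86.

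Between 12 and 24 h of fasting, which lie within a format, no member was called by limma, beside 2.94% of all probes. In the same fit 16 of the 97 members had an unadjusted p under 0.05, beside 21% of all probes. In Cy5, 17 of the 97 members were called between these times, beside 14.4% of all probes. Between 72 h and 12 h 14 members were called, 14.4% beside 10.8% of all probes, and between 72 h and 24 h 8 were, 8.25% beside 10.6%. In the last pair of comparisons fasting time and format cannot be told apart.

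The reference RNA was common to the arrays, so that a difference in its channel is not a difference of the fasted tissue. In Cy5 alone 21 of the 97 members passed the same threshold at 12 h, 16 at 24 h and 0 at 72 h by limma, where 2 had an unadjusted p under 0.05. Of all probes 21.9%, 20.4% and 0% passed it in Cy5, so the shift was not particular to the members. Of the 11 calls at 12 h, 6 were also called in Cy5, 7 had a larger change in Cy5 than in Cy3, and none was called in Cy3 alone. Hist1h2bc changed by -0.10 in Cy3 and by 0.95 in Cy5 at 12 h, against -1.16 and 0.25 at 72 h. H3f3a changed by -0.45 in Cy3 and by 0.56 in Cy5 at 12 h, by -0.89 and -0.06 at 24 h and by -0.82 and 0.28 at 72 h. Hmga1 changed by 0.34 and -0.80 at 12 h and by 0.84 and -0.10 at 72 h. Brd3 and H1f0 had the opposite sign in Cy3 at 12 h (-0.27 and 0.38), as did Cbx3 at 24 h (-0.11). Of the calls at 24 h 4 of 12 were called in Cy3 alone, and at 72 h 9 of 17, with no member's Cy5 change larger than its Cy3 change among the 17.

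**Figure D5:**
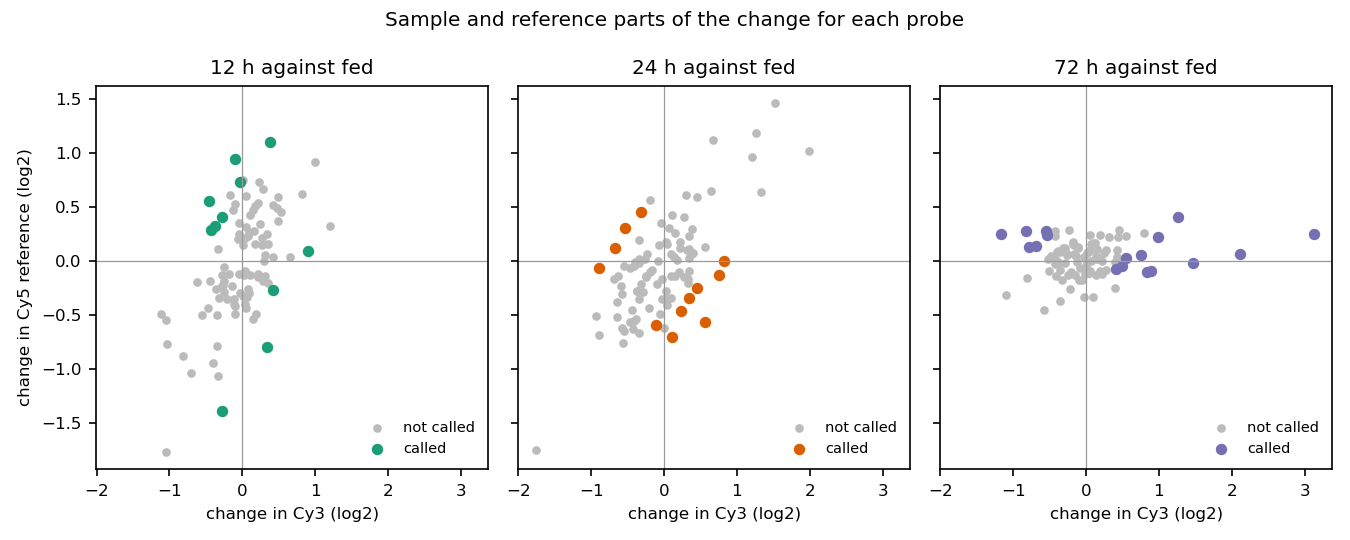
Change of each of the 97 probes in the Cy3 channel (horizontal, log2) and in the Cy5 reference (vertical, log2) against the fed arrays at 12, 24 and 72 h, with called probes in colour. At 12 h called probes spread along the Cy5 axis from -1.39 to 1.10, and at 72 h along the Cy3 axis.

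Other chromatin genes were taken from a list of 120 symbols, of which 53 had a probe by name, 77 probes in all. At 12 h 11 of these probes rose and 3 fell, at 24 h 4 rose and 4 fell, and at 72 h 5 rose and 6 fell. These were 18.2%, 10.4% and 14.3% of the probes, beside 10.9%, 10.0% and 10.6% of all. With median centring 5 rose and 7 fell at 12 h, 7 rose and 7 fell at 24 h and 4 rose and 8 fell at 72 h, and with loess the splits were 11 and 3, 10 and 6, and 12 and 7. With the software's own ratios they were 6 and 4, 9 and 5, and 8 and 6. Of all probes, 1072 rose and 1222 fell at 12 h with loess, 1599 and 2390 at 24 h, and 1572 and 1807 at 72 h. The median change of the other chromatin probes was 0.02, 0.04 and 0.07. Slbp, which binds the stem-loop at the end of replication-dependent histone mRNAs, fell 2.35-fold at 72 h (-1.23 ± 0.25, adjusted p = 0.00591), where it read -1.83, -0.79 and -0.75 against 0.07, 0.05 and 0.22 in the fed pools. Cpsf3, the nuclease that cuts those mRNAs, fell 1.66-fold at 72 h by a probe (adjusted p = 0.0432) whose partner changed by -0.20 (adjusted p = 0.481). Rbbp4, a histone-binding subunit of deacetylase complexes, fell 1.80-fold at 72 h (adjusted p = 0.0269) with replicate 3 left out as an outlier spot. Pcaf, a histone acetyltransferase, rose 1.69-fold (adjusted p = 0.00744) and Ncor1, the partner of Hdac3, rose 1.47-fold at 72 h by a probe (adjusted p = 0.0353) that was the only called one of its 3. Trim28, the KAP1 corepressor, rose 2.50-fold (adjusted p = 0.00792) and Cenpb, which binds centromeric DNA, rose 2.38-fold (adjusted p = 0.00928) at 12 h, where their Cy5 changed by -0.57 and -0.92 of log2 changes of 1.32 and 1.25.

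Markers of cell types were read on the same arrays, and some of them were called. Of 24 probes for 18 genes of proliferating cells, 2 fell at 12 h, 4 fell and 1 rose at 24 h, and 6 fell and 1 rose at 72 h. Their summed Cy3 level was 6061 to 7183 in the fed pools and 4790 to 4975 at 72 h. Pcna fell 2.04-fold (adjusted p = 0.00780) and Cdc2a, the Cdk1 gene, 1.97-fold at 72 h (adjusted p = 0.00295). Mcmd2 was the probe that rose at 72 h, 1.43-fold (adjusted p = 0.04765). Mki67 changed at 72 h by 0.45 by probe A_65_P17714 and by -0.26 by A_65_P18815. Top2a changed by 0.41 by A_65_P17749, by 0.095 by A_65_P15533 and by -0.30 by A_65_P09463. No probe of these genes was called at 72 h. The plasma cell marker Igj fell 9.30-fold at 72 h (-3.22 ± 0.24, adjusted p = 4.96e-06), and Agr2 of goblet cells fell 2.72-fold (adjusted p = 0.00186). Each was the only probe found for its cell type. Of 5 smooth muscle probes 3 rose at 12 h, 1 at 24 h and 2 at 72 h, and their sum was 4386 to 6013 fed and 6321 to 7232 at 72 h. For enterocytes 1 of 4 probes rose at 12 h and for Paneth cells 1 of 3. Of 3 probes for T cells and leukocytes, only Ptprc was called at 72 h, where it fell. The exocrine pancreas probe was called at no time, and no erythroid marker was matched by name. At 12 h Cy5 changed by -1.42 for Acta2, by -1.09 for Actg2, by -0.46 for Des, by -2.13 for the enterocyte marker Anpep and by -0.64 for the Paneth cell marker Mmp7, of log2 changes of 2.38, 1.80, 1.73, 3.43 and 2.02. The part of these cell types in the changes of the chromatin genes was not tested.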

How the data were processed

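The authors scanned 12 Agilent 2-colour arrays and deposited Feature Extraction output with a median foreground and background intensity per spot and channel, neither corrected nor normalized. The deposited log10 ratios, with moved decimal points scaled back, served as an alternative. Background was corrected with normexp (offset 50), outlier spots were left out, followed by a joint quantile normalization of the 24 channels. The 1075 controls among 21446 spots were dropped. Averaging spots gave 20281 probes. Their log2(Cy3/Cy5) entered a limma model (version 3.58.1, R 4.3.3) with a mean per time over 12 arrays, eBayes and Benjamini-Hochberg adjustment over all probes. The analysis of variance of the study was not repeated, but its thresholds, an unadjusted p under 0.01 and 1.4-fold, were tried on the same fit. Cy5 alone was put through the same model as a control. Genes have the names of the 12 h files, and 95 member probes matched the current annotation, 16 under another symbol. The text names every called member except 1 gene, which enters the counts but is not reported here, and, called or not, the brightest probe of a list of genes, of which H2afz and Hmgb2 are not analysed here. A probe not well above background in a group has only a bound, in Cy3 after loess and Aquantile normalization. Members and lists were chosen with earlier results of these data known. The pools hold different mice, and p-values measure the spread between 3 pools per time. Cell type markers were 9 lists, with 35 genes found. Alternatives are given in the closing section. The fit was tested on simulated data. Tables were also read with pandas and plots drawn with matplotlib in Python.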

Additional observations from a re-analysis of the deposited data

Results flagged for a closer look

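The members named here changed by unlike amounts at 72 h and at an earlier fasting time, by the limma contrast of the 2 times over 3 pools each, or 2 for Hdac10 at 72 h and Ezh1 at 24 h, a contrast added after seeing the data. In every one of these contrasts fasting time and file format cannot be told apart. In Cy5 the same threshold was passed by 8 of the 97 members for 72 h against 12 h, beside 9.2% of all probes. For 72 h against 24 h it was passed by 13 members, beside 13.8% of all probes.

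At 72 h against 12 h, the log2 difference was 2.12 for Cbx2 (A_65_P02798), 0.96 for H3f3b (A_65_P17970), 0.77 for Hdac3 (A_65_P16528) and 0.74 for Sirt7 (A_65_P14652). It was 0.57 for Baz2a (A_65_P12635) and 0.55 for Hdac7a (A_65_P15793). Lower at 72 h than at 12 h were Hdac10 (A_65_P11420) with -1.37, H2afy (A_65_P01856) with -1.01, Smarcd2 (A_65_P05416) with -0.77, Baz1b (A_65_P03047) with -0.74 and Mbd3 (A_65_P02512) with -0.70. The Cbx5 probes A_65_P12164 and A_65_P17946 were lower by -0.73 and -0.58. For these probes adjusted p ran from 0.00710 for Cbx2 to 0.0454 for Hdac3. Not called were the other probes of Cbx5 (0.25 and -0.33), of Baz1b (0.27 and -0.21) and of Smarcd2 (-0.45). For Hdac10 the difference was 0.24 in Cy3 and 1.60 in Cy5, so that the ratio was lower though Cy3 was higher. Cy5 also differed more than Cy3 for H2afy (0.64 and -0.37) and H3f3b (-0.61 and 0.35).

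At 72 h against 24 h, the log2 difference was 1.63 for Cbx2 (A_65_P02798), 1.11 for Hdac3 (A_65_P16528), 0.98 for Ezh1 (A_65_P14719) and 0.92 for H3f3b (A_65_P17970). It was -0.73 for Hrmt1l1 (A_65_P17899), -0.65 for Cbx8 (A_65_P07402), -0.65 for Smarcal1 (A_65_P17506) and -0.57 for Cbx5 (A_65_P12164). Adjusted p ran from 0.00918 for Hdac3 to 0.0366 for Cbx5. Cy5 differed more than Cy3 for Cbx8 (0.45 and -0.20) and Hrmt1l1 (0.42 and -0.31). The probes of Cbx2 and H3f3b, and 1 each of the 3 Hdac3 and 4 Cbx5 probes, differed from both earlier times.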

How the results depend on the processing

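Counts of called members are given for 12, 24 and 72 h against fed in that order, where the reported counts were 11, 12 and 17, beside 2208, 2031 and 2149 of all probes. The counts of members were 6, 6 and 12 without background correction, 10, 9 and 14 with plain subtraction, 11, 19 and 24 with loess, 5, 14 and 23 with the deposited log ratio, 7, 21 and 10 in Cy3 alone, 19, 13 and 29 directly against the reference, 0, 13 and 24 with only the 2 time points compared, and 7, 4 and 10 without moderation of the variance. Of all probes, 1188, 1522 and 1541 were called without background correction, and 1883, 1912 and 1867 with plain subtraction. With loess 2294, 3989 and 3379 were, with the deposited log ratio 1594, 3274 and 3209, and in Cy3 alone 3037, 4989 and 1760. Directly against the reference 4143, 2572 and 4624 were called, with only the 2 time points 0, 3253 and 3815, and without moderation 1034, 1226 and 1445. By an unadjusted p under 0.01 and 1.4-fold the counts of members were 15, 12 and 22, beside 2821, 2658 and 2653 of all probes. Counting the brightest probe of each of the 71 genes, a choice made after seeing the data, gave 7, 9 and 15. The same count over all genes of the array was not made. The pools are of different mice, and deviations of same-numbered pools correlated between -0.281 and 0.128 over 18 pairs of arrays, so that the numbers do not pair them. With the replicate block the counts of members were 7, 6 and 11, beside 1291, 1493 and 1705 of all probes. Leaving out each array in turn gave 3 to 23, 0 to 18 and 4 to 25 members, beside 640 to 4591, 584 to 3987 and 852 to 3741 of all probes. Counts moved by over 1.5 times at 12 h without fed replicate 1 (5), fed replicate 3 (3), 12 h replicate 1 (23), 12 h replicate 2 (7), 12 h replicate 3 (5) or 72 h replicate 3 (7). At 24 h they did so without fed replicates 1, 2 or 3 (1, 6 and 2), 24 h replicates 1, 2 or 3 (0, 3 and 3) or 72 h replicates 1, 2 or 3 (6 each). At 72 h they did so without fed replicate 1 (9) or 3 (7) or 72 h replicates 1, 2 or 3 (4, 11 and 10). For 24 h against 12 h, where no member was called, the count was 1 without background correction, 9 in Cy3 alone, 1 without moderation, 3 by the unadjusted threshold, 0 with the replicate block, and 0 to 4 without each array, with 4 without 12 h replicate 1. Of all probes, 355 were called without background correction, 1667 in Cy3 alone, 347 without moderation and 1668 by the unadjusted threshold. With the replicate block 389 were, and without 12 h replicate 1 1493 were.

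Of the 40 calls, 4 held in all 14 other settings and 3 of these also without each array in turn: Smarcb1, Hist1h2bc and H3f3a at 72 h. H3f3a at 24 h was the other. Only in Cy3 alone did calls reverse: Brd3 at 12 h (-0.27), H1f0 at 12 h (0.38) and Cbx3 at 24 h (-0.11), where Cy5 changed by -1.39, 1.10 and -0.59. For the other chromatin genes, 14, 8 and 11 probes were called, and the same alternatives were added after seeing the data. At 12 h the count was 7 without background correction, 8 in Cy3 alone, 23 directly against the reference, 0 with only the 2 time points, 7 without moderation, 8 with the replicate block and 5 to 21 without each array. At 24 h it was 16 with loess, 14 with median centring, 14 with the deposited ratio, 17 in Cy3 alone, 15 directly against the reference, 15 with only the 2 time points, 14 by the unadjusted threshold and 3 to 21 without each array. At 72 h it was 7 without background correction, 7 with plain subtraction, 19 with loess, 7 in Cy3 alone, 21 directly against the reference, 21 with only the 2 time points, 6 without moderation, 6 with the replicate block and 1 to 18 without each array. The cause of these differences was not tested.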
